A study of Mus musculus with 6 samples.

Results

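The genes described here are 33 that mark macrophages or report their activation state, measured in whole mammary gland at day 2 of involution, in 3 WT mice and 3 Rac1-/- mice. The rule lists them by name and uses no difference between the groups. Each is represented by the probe set with the highest mean over the 6 arrays among those that name that gene alone, so that 33 of the 18193 genes on the array with such a probe set were followed, and every one of the 33 had a value.

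Macrophages are resident phagocytes of the mammary stroma and ducts. They depend on the growth factor Csf1 and its receptor Csf1r, and their gene programme is set by the transcription factors PU.1 (encoded by Spi1) and Irf8. In involution, which follows weaning, the milk-secreting alveoli die back and fat tissue refills the gland. Macrophages are known in this setting for clearing dead cells and milk residue and for remodelling the stroma.

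The Rac1-/- mice carried WAPiCre, a Cre recombinase driven by the whey acidic protein promoter in luminal epithelial cells from pregnancy onwards, with floxed Rac1 alleles (Rac1 fx/fx) and a Cre-dependent YFP reporter. The WT mice were littermates that also carried Rac1 fx/fx and YFP but lacked the Cre. Dams of both groups were age matched and nursed their pups, the pups were taken away, and the glands were collected 2 days later. The deletion is thus restricted to the epithelium, and the macrophages of both groups keep Rac1. Total RNA of the whole frozen gland of each mouse was hybridized to its own Affymetrix Mouse 430 2.0 array with no pooling.

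The targeted gene was read first. On the brightest Rac1 probe set WT glands read 9.31, 9.50 and 8.97 (log2 intensity) and Rac1-/- glands 9.51, 9.01 and 9.84. On another bright one WT glands read 8.74, 9.0 and 9.89, and Rac1-/- glands 8.77, 8.34 and 8.14. Neither separated the groups, and as the sources used here do not give the deleted exons, neither checks the labels. The arrays also differed among themselves. The interquartile range of log2 intensity was between 1.23 and 2.85. The first principal component, with 44.3% of the variance, was highest in Rac1-/- mouse Nas497 (119.2) and WT mouse Nas484 (64.5). The others followed as a gradient, at 4.7 in Nas518, -36.2 in Nas496, -74.4 in Nas483 and -77.8 in Nas478. A separate measure came from the actin controls, as log2 intensity at the 3' end minus that at the 5' end. It lay between -0.17 and 0.048 for WT arrays and between -1.24 and -0.30 for Rac1-/- arrays, so on this measure of the RNA or its amplification the groups did not overlap. The same measure from the Gapdh controls did overlap, between -0.037 and 0.16 for WT arrays and between -0.058 and 0.18 for Rac1-/- arrays.

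Most macrophage genes had a somewhat higher mean in Rac1-/- glands, but no single gene passed the test. The mean log2 intensity was higher in Rac1-/- for 28 of the 33 genes and lower for 5, where 53.9% of all genes had a higher mean. The median difference, Rac1-/- minus WT, was 0.54 on the log2 scale, with single genes between -0.34 and 1.31, beside a median of 0.06 over all genes. With limma's moderated test adjusted by Benjamini-Hochberg over all genes, 0 of the 33 genes passed an adjusted p of 0.05, and so did 0% of the 18193 genes in either direction. The adjusted p of the 33 lay between 0.946 and 0.998. At an unadjusted p under 0.05 in the same limma fit, 1 of the 33 had a higher mean and none a lower one, beside 2.23% and 1.82% of all genes. In 3 of the 33 (Itgax, Irf8 and Fcer1g) every Rac1-/- value lay above every WT value, beside 5.41% of all genes, and in 0 of the 33 did every value lie below, beside 4.21%. In whole-gland RNA, a change in the number of macrophages and a change in RNA per macrophage cannot be told apart.

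How far the genes shifted as a group depended on how the arrays were put on one scale. The values above are quantile normalized. When the arrays were instead only scaled to a common median, 19 of the 33 genes had a higher mean and 14 a lower one, the median difference was 0.061, and none of the 33 separated the groups, beside 4.38% of all genes higher and 6.56% lower. That scaling also moved the median of all genes to -0.13, so the macrophage genes lay 0.48 above it with quantile normalization and 0.19 above it with a common median.

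**Figure D1:**
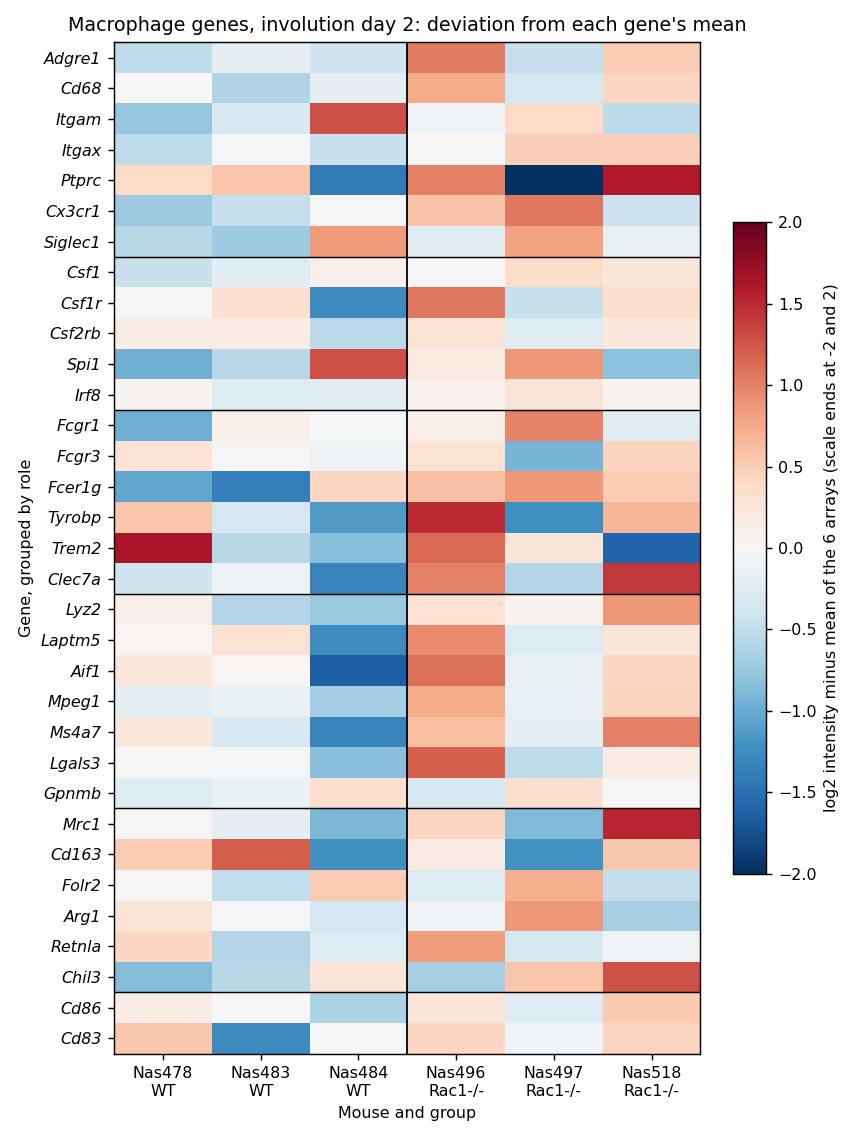
Deviation of each of the 33 macrophage genes (rows, grouped by role) from its own mean over the 6 arrays, in log2 units, for each mouse (columns; the first 3 are WT, the last 3 Rac1-/-; the colour scale ends at -2 and 2). Nas496 and Nas518 are mostly red, Nas484 mostly blue, and Nas497 mixed.

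Seen mouse by mouse, the higher means were carried by Nas496 and Nas518. After each gene was centred on its own mean, the median over the 33 genes was 0.019 in Nas478, -0.19 in Nas483 and -0.40 in Nas484, which are WT, and 0.42 in Nas496, -0.15 in Nas497 and 0.41 in Nas518, which are Rac1-/-. Nas497 therefore lay within the WT range, and the groups overlapped. Nas496 was above the gene's mean for 25 of the 33 genes and Nas518 for 24, while Nas497 was above it for 15 and the WT mice for 18, 8 and 8. The WT mouse Nas484 had the lowest value of all 6 mice for 12 genes, more than any other mouse, and Nas496 the highest for 10.

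Among the surface and lineage genes, 6 of 7 had a higher mean in Rac1-/- glands, with a median difference of 0.54. Adgre1 encodes the adhesion receptor most used as an antigen to stain mouse macrophages. Its log2 intensity was 6.75, 7.08 and 6.85 in WT and 8.29, 6.79 and 7.76 in Rac1-/-. Nas496 and Nas518 were above every WT mouse and Nas497 was near the bottom of the WT range, which left a difference of 0.72 ± 0.51 (SE, n = 3 mice a group, limma adjusted p = 0.95). Cd68, a lysosomal glycoprotein of phagocytes, was also highest in Nas496 and Nas518. It read 7.29, 6.69 and 7.11 in WT and 8.05, 6.95 and 7.71 in Rac1-/-, a difference of 0.54 ± 0.48 (SE). Without Nas497 the differences were 1.23 for Adgre1 and 0.92 for Cd68, without Nas496 they were 0.38 and 0.29, and neither gene passed the adjusted threshold.

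Ptprc (CD45), the phosphatase carried by all leukocytes, varied more within the groups than between them. It was 7.91, 8.08 and 6.13 in WT and 8.54, 5.40 and 9.11 in Rac1-/-, lowest in Nas484 among the WT mice and in Nas497 among the Rac1-/- mice. The difference was 0.31 ± 0.99 (SE), with a 95% interval from -1.95 to 2.56, and leaving out Nas497 it was 1.55, leaving out Nas484 -0.34, Nas496 -0.11 and Nas518 -0.42. Itgam (CD11b), the integrin subunit of monocytes, macrophages and neutrophils, ran the other way across those arrays. It was 5.71, 6.17 and 7.77 in WT and 6.40, 6.86 and 5.95 in Rac1-/-, highest in Nas484. The difference was -0.14 ± 0.62 (SE), and 0.49 without Nas484 and 0.087 without Nas518.

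Itgax (CD11c), the integrin subunit shared by dendritic cells and some tissue macrophages, was 5.64, 6.12 and 5.71 in WT and 6.14, 6.64 and 6.63 in Rac1-/-. All Rac1-/- mice were above all WT mice, although Nas496 exceeded Nas483 only in the second decimal, and the difference was 0.65 ± 0.43 (SE). A two-sided exact permutation test gave p = 0.1, the smallest that 3 mice against 3 allow. Groups that do not overlap fix it at that value, for Irf8 and Fcer1g too, so it adds nothing to the separation. Itgax and Itgam are neighbours on chromosome 7, 11.0 kb apart in GRCm38.p6, and differed in the order of the mice. Itgax is also one of the 6 genes whose mean lay below that of the median gene on the array (6.20).

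Cx3cr1, the fractalkine receptor of monocytes and ductal macrophages, was 5.83, 6.10 and 6.53 in WT and 7.12, 7.60 and 6.13 in Rac1-/-, a difference of 0.80 ± 0.52 (SE). Here it was Nas518, not Nas497, that fell among the WT mice. A dimmer probe set of the same gene read 5.44, 5.17 and 6.21 in WT and 6.53, 6.54 and 6.44 in Rac1-/-. On that probe set the groups did not overlap and the difference was 0.89 ± 0.48 (SE). Siglec1 (CD169), the sialic acid receptor of resident and sinus macrophages, differed by 0.29 ± 0.58 (SE) and was highest in Nas484 and Nas497, at 8.22 and 8.18, and its dimmer probe sets gave -0.10 and 0.06.

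**Figure D2:**
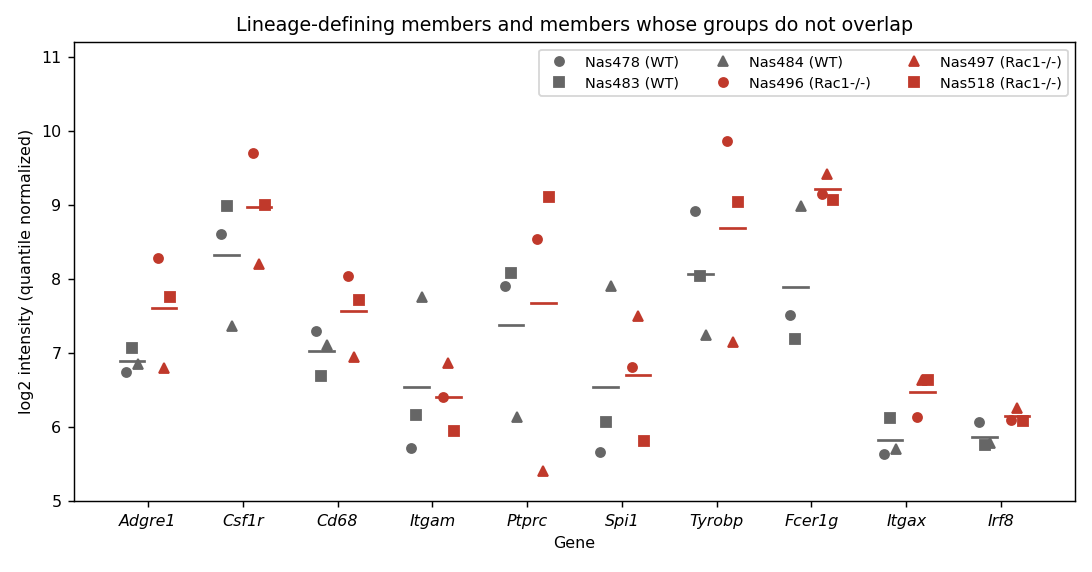
Quantile-normalized log2 intensity of the genes that define the lineage and of those whose groups do not overlap (x axis), 1 point per mouse with WT in grey and Rac1-/- in red, and a bar at each group's mean. Nas484 and Nas497 (triangles) are the lowest mice of their groups for Csf1r, Ptprc and Tyrobp, and the highest for Itgam and Spi1.

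The growth factor axis and the lineage transcription factors had small differences, from 0.16 to 0.65, with a higher Rac1-/- mean in 5 of 5 and a median of 0.28. Csf1r, the receptor tyrosine kinase on which macrophage survival depends, was 8.61, 8.99 and 7.37 in WT and 9.71, 8.20 and 9.0 in Rac1-/-. Nas496 was the highest mouse and Nas484 the lowest, the groups overlapped, and the difference was 0.65 ± 0.61 (SE), or 0.17 without Nas484, 0.27 without Nas496 and 1.08 without Nas497. Its other probe sets gave 0.21 and -0.37, so the direction was not shared within the gene. The ligand Csf1 differed by 0.38 ± 0.43 (SE), and by 0.31, -0.11 and -0.73 on its other probe sets. Csf2rb, the common beta chain of the receptors for GM-CSF, IL-3 and IL-5, differed by 0.16 ± 0.45 (SE), and by -0.52 on its other probe set.

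Spi1, the gene of PU.1, was 5.66, 6.07 and 7.91 in WT and 6.81, 7.50 and 5.81 in Rac1-/-. As for Itgam, Nas484 held the highest value, and the difference of 0.16 ± 0.71 (SE) was smaller than the spread within either group. It was -0.27 without Nas478, -0.073 without Nas483 and -0.26 without Nas497. Irf8, the interferon regulatory factor that partners PU.1 in monocyte and dendritic cell development, was 6.06, 5.76 and 5.78 in WT and 6.10, 6.26 and 6.08 in Rac1-/-. The groups did not overlap, but only narrowly, with Nas478 just under Nas518, and the difference was 0.28 ± 0.41 (SE; two-sided exact permutation p = 0.1). Its other probe set gave -1.09 ± 0.95 (SE), with overlapping groups.

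In the colony-stimulating factor pathway beyond these genes, 4 of 10 measured genes had a higher mean and 6 a lower one, with a median of -0.30 and none past the adjusted threshold. Those with the smallest p were Runx1, a transcription factor of blood cell development, at -0.96, and Csf2, the gene of GM-CSF, at 1.20.

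The activating receptors and their adaptors held the genes with the largest differences. Fcer1g encodes the Fc receptor gamma chain, the ITAM adaptor through which the activating Fc receptors signal and are kept on the surface. It was 7.52, 7.19 and 8.99 in WT and 9.15, 9.43 and 9.07 in Rac1-/-. The Rac1-/- mice were close together (SD 0.19), Nas478 and Nas483 were well below them, and Nas484 came just under the lowest. The difference of 1.31 ± 0.56 (SE), a 2.49-fold higher mean, had a 95% interval from 0.034 to 2.60 and a limma p of 0.045, or 0.95 after adjustment. It was higher in Rac1-/- in all 16 alternative analyses, at 0.50 when arrays were scaled to a common median.

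Clec7a encodes dectin-1, a receptor for fungal beta-glucans with its own activation motif. It was 6.90, 7.20 and 5.97 in WT and 8.30, 6.72 and 8.72 in Rac1-/-. Nas496 and Nas518 were more than a log2 unit above the highest WT mouse while Nas497 was below it, and the difference was 1.22 ± 0.64 (SE, limma adjusted p = 0.95). Without Nas497 it was 1.97, and without Nas518 it was 0.84. Tyrobp (DAP12), the other ITAM adaptor of the lineage, was 8.93, 8.04 and 7.24 in WT and 9.87, 7.15 and 9.04 in Rac1-/-. The spread within each group exceeded the difference of 0.62 ± 0.76 (SE), and without Nas496 the difference was 0.027, without Nas484 0.20 and without Nas497 1.45.

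The Fc receptors that signal through the gamma chain were read as well. Fcgr1 (CD64), the high-affinity IgG receptor, differed by 0.59 ± 0.53 (SE). Fcgr3, a lower-affinity activating IgG receptor, was 7.65, 7.41 and 7.28 in WT and 7.69, 6.45 and 7.82 in Rac1-/-, so that Nas497 was the lowest of the 6. The difference was -0.12 ± 0.51 (SE), and 0.34 without Nas497. Fcgr3 and Fcer1g lie 163.7 kb apart on chromosome 1. Trem2, a lipid-sensing receptor that signals through Tyrobp, was dim and scattered, at 4.66, 2.47 and 2.17 in WT and 4.15, 3.26 and 1.44 in Rac1-/-. Its difference was -0.15 ± 0.87 (SE), and -1.19 ± 0.65 (SE) on a second probe set that was dim too, so no direction could be read.

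Of the kinases, phosphatases and linkers downstream of these adaptors, 7 of 11 measured genes had a higher mean and 4 a lower one, with a median of 0.40 and none past the adjusted threshold. The smallest p values belonged to Hcst (DAP10), an adaptor without an ITAM, at -1.0, and Lcp2 (SLP-76), a linker of immune receptor signalling, at 1.0. In both the groups did not overlap.

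The DNA before the start of some of these genes can be set beside the values. RefSeq promoter windows of GRCm38.p6 were matched for 24 of the 33 genes, 30 windows in all. They were searched on both strands for GAGGAA, a core of PU.1 sites, and for the Ets-IRF composite, GGAA and GAAA with 2 bases between them, which PU.1 binds with an interferon regulatory factor. The first was found in 14 of the 30 windows and in 28.3% of all 32851 windows, the second in 4 of the 30 and in 2.72% of all. Windows of one gene can overlap, and by gene the first was found for 12 of 24 and the second for 3 of 24. A match is only a run of letters, and the motifs can overlap in their GGAA. Stretches that end at the base before the start are printed for the genes with the largest differences, Fcer1g (chr1:171234350-171234469, minus strand) and Clec7a (chr6:129472786-129472905, minus strand), and for Folr2 (chr7:101857191-101857330, minus strand), described with the resident genes, whose difference was near 0. Capitals mark the motifs on either strand.
Fcer1g: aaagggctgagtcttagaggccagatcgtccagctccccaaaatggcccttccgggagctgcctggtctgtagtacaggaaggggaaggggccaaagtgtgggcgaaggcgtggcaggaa
Clec7a: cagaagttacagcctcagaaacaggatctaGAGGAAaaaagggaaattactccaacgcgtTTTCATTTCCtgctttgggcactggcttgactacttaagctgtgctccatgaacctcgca
Folr2: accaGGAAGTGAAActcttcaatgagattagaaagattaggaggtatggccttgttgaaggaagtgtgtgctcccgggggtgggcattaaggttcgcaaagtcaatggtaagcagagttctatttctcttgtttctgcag
Clec7a holds both motifs, Folr2 the composite, and Fcer1g neither in its window.

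**Figure D3:**
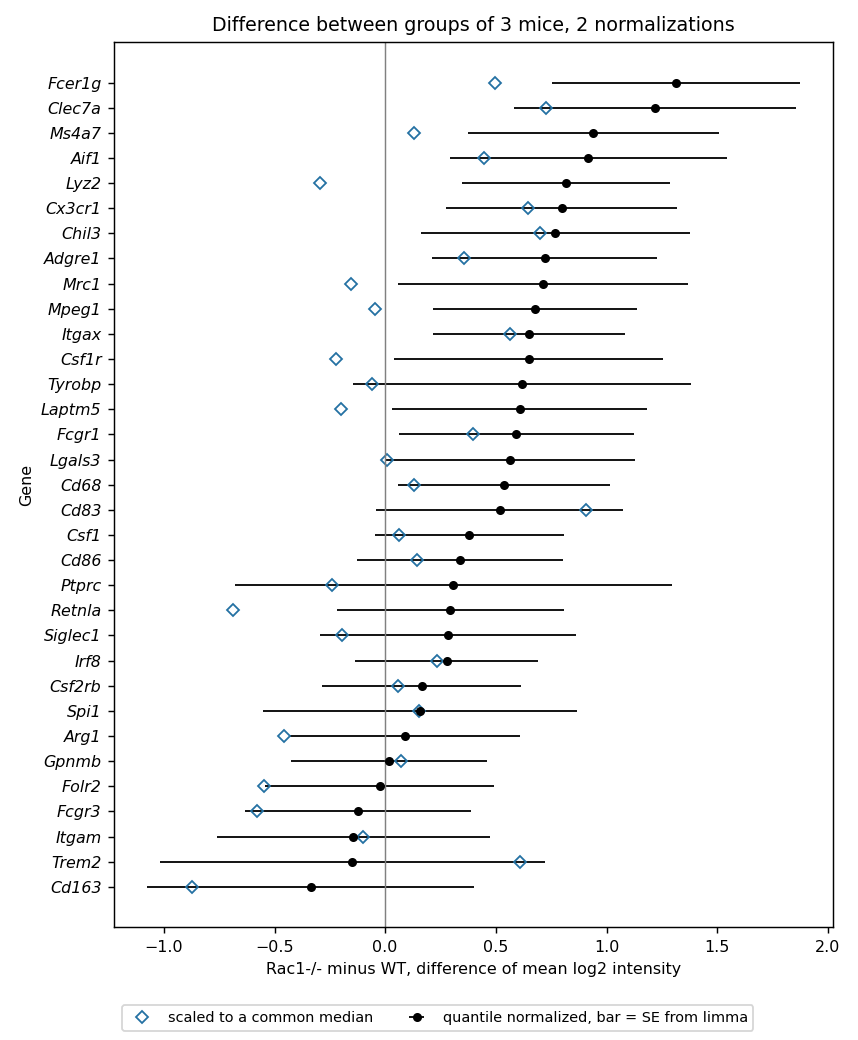
Difference of mean log2 intensity, Rac1-/- minus WT (x axis), for each of the 33 genes (y axis), quantile normalized (black, bar = SE from limma, 3 mice a group) and scaled to a common median (open diamonds). Most black points lie right of 0, and most diamonds lie left of their black point, as for Lyz2, which crosses 0.

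The lysosomal, cytoplasmic and membrane effectors had a higher Rac1-/- mean in 7 of 7 and a median difference of 0.68, though with a common median 4 of 7 were higher and the median was 0.0069. Ms4a7, a membrane protein of mature macrophages, was 8.23, 7.68 and 6.68 in WT and 8.60, 7.80 and 9.01 in Rac1-/-. Nas484 was the lowest mouse and Nas497 lay inside the WT range, and the difference was 0.94 ± 0.57 (SE), or 0.01 on its dimmer probe set. Aif1 (Iba1), an actin-bundling protein of macrophages and microglia, was 7.09, 6.91 and 5.24 in WT and 7.97, 6.72 and 7.31 in Rac1-/-, a difference of 0.92 ± 0.62 (SE). Its WT mean rested on Nas484, and without that mouse the difference was 0.34, and 0.59 without Nas496.

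Lyz2, the macrophage lysozyme, was 10.06, 9.37 and 9.23 in WT and 10.26, 10.04 and 10.82 in Rac1-/-. Only Nas478 overlapped the Rac1-/- mice, and the difference was 0.82 ± 0.47 (SE), but -0.29 with a common median. Mpeg1, a pore-forming protein of phagosomes, differed by 0.68 ± 0.46 (SE), and Lgals3 (galectin-3), a lectin recruited to damaged endosomes, by 0.57 ± 0.56 (SE). Lgals3 differed by 0.10 without Nas496, by 1.03 without Nas497 and by 0.0069 with a common median, and Mpeg1 by -0.048 with a common median. Laptm5, a lysosomal membrane protein of blood cells, differed by 0.61 ± 0.58 (SE) on its brightest probe set and by -0.65, -0.39, -0.23 and -1.63 on the other 4, so no direction could be given. Gpnmb, a glycoprotein of lipid-laden macrophages, differed by 0.019 ± 0.44 (SE).

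Genes of resident and alternatively activated macrophages had the lowest median of the role groups, 0.19, with a higher mean in 4 of 6, or 1 of 6 and -0.50 with a common median. Mrc1 (CD206), the mannose receptor, was 8.82, 8.61 and 7.90 in WT and 9.23, 7.91 and 10.33 in Rac1-/-. Nas518 stood well above the rest, and the difference was 0.71 ± 0.66 (SE), 0.13 without it and 1.37 without Nas497. Cd163, the haemoglobin scavenger receptor, had the lowest difference of the 33. It was 7.51, 8.22 and 5.78 in WT and 7.16, 5.79 and 7.54 in Rac1-/-, low in Nas484 and Nas497 alike, with a difference of -0.34 ± 0.74 (SE), and 0.18 without Nas483 and 0.21 without Nas497.

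Folr2, the folate receptor beta of resident macrophages, was 7.28, 6.76 and 7.77 in WT and 6.98, 7.96 and 6.79 in Rac1-/-. Unlike Cd163, it was highest in Nas484 and Nas497, and the difference was -0.025 ± 0.52 (SE). The genes induced by IL-4 were no more alike. Retnla (Fizz1), a secreted protein, differed by 0.29 ± 0.51 (SE), Arg1 (arginase 1) by 0.089 ± 0.52 (SE), and Chil3 (Ym1), a chitinase-like protein that neutrophil precursors make too, by 0.77 ± 0.61 (SE). With a common median the first of these was -0.69, the second -0.46 and the third 0.70. The costimulation and maturation genes Cd86 and Cd83, which antigen-presenting cells display to T cells, differed by 0.34 ± 0.46 (SE) and 0.52 ± 0.56 (SE).

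Which arrays are in the comparison mattered for how cleanly the genes separated. The arrays of Nas484 and Nas497 were both below the other 4 for 12 of the 33 genes, beside 14.8% of all genes, and both above for 5, beside 19.8%. The lower set held Ptprc (-2.64, mean of these arrays minus the other 4), Cd163 (-1.83), Tyrobp (-1.77), Clec7a (-1.43), Mrc1, Aif1, Csf1r, Laptm5, Lgals3, Fcgr3, Cd86 and Csf2rb. The upper set held Spi1 (1.62), Itgam (1.25), Siglec1 (1.24), Folr2 (0.92) and Gpnmb (0.50). Genes of this list thus lay both ways on the same arrays, of which 1 is WT and the other Rac1-/-. The share in the upper set was below that over all genes, so it is no trait of these genes.

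Nas497 lay within the WT range for these genes, as given above, so more separated genes without it decide nothing. Leaving out Nas497 alone, 18 of the 33 genes had every Rac1-/- value above every WT value and none below, beside 9.56% and 9.03% of all genes with 2 Rac1-/- mice. Leaving out Nas484 alone, 6 did so, beside 17% of all genes higher, while 5 did without Nas478, beside 7.87%, 4 without Nas483, beside 8.16%, 5 without Nas496, beside 13%, and 5 without Nas518, beside 10.7%. Without Nas496 the median difference was 0.29. With Nas484 and Nas497 both left out, 21 were higher and 1, Arg1, was lower, beside 21.8% and 17.4% of all genes, and the median difference was 0.58. No gene of the 33 passed the adjusted limma threshold in any of these, and the smallest adjusted p over the 16 alternatives was 0.41. With the actin 3' to 5' difference as a covariate, the median was 0.81 and 24 of the 33 differences were above 0, beside 48.6% of all genes. In that fit 6 genes, all higher, had an unadjusted limma p under 0.05 (Adgre1, Ptprc, Tyrobp, Clec7a, Ms4a7 and Mrc1), beside 2.79% of all genes higher and 3.72% lower. Since the actin measure itself separates the groups, it and the genotype cannot be told apart.

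**Figure D4:**
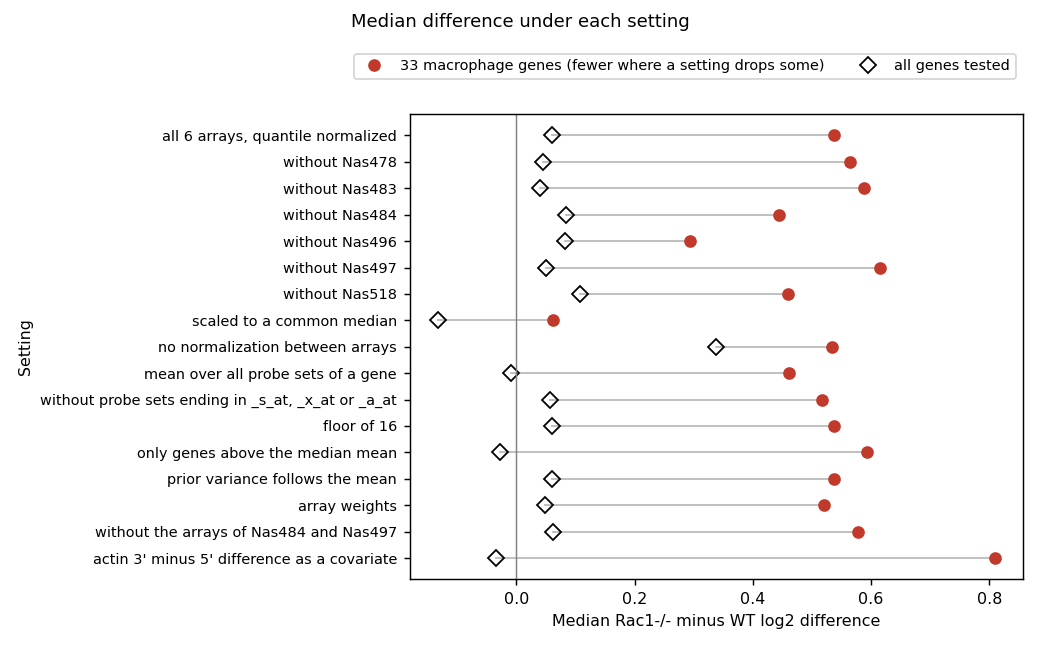
Median difference, Rac1-/- minus WT in log2 units (x axis), of the macrophage genes (red) and of all genes tested (open diamonds) in the analysis described and in each of 16 alternatives (y axis). The red point is right of its diamond throughout, farthest left at 0.061 with a common median, and at 0.29 without Nas496.

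A separate list of 19 macrophage genes outside the 33 was measured too. It was chosen with earlier results of these data known, so it is no independent check. A higher Rac1-/- mean was found for 18 of 19, with a median of 0.66, and in 4 (Fcgr4, Msr1, C1qa and Tlr2) every Rac1-/- value was above every WT value, beside 5.41% of all genes. The summed linear intensity of the list ran from 3497 to 4320 in WT and from 6388 to 7774 in Rac1-/- glands, while that of the 33 genes ran from 5159 to 6809 against 6547 to 10470, which overlapped. Such a sum weighs bright genes most, and for the bright Ctss and Cd84 the groups overlapped. Cd84 was 6.97, 7.32 and 9.80 in WT and 8.27, 11.22 and 9.82 in Rac1-/-. The median of the list, each gene centred on its own mean, ran from -0.41 to -0.066 in WT and from 0.11 to 0.28 in Rac1-/-. The genes with the smallest p were Slamf9, a surface receptor, at 1.29, and Fcgr4, an activating Fc receptor that uses the gamma chain, at 1.04. No gene of the list passed the adjusted threshold, and with a common median 12 of 19 had a higher mean, with a median of 0.21. With that scaling 0 of the 19 separated the groups, beside 4.38% of all genes higher and 6.56% lower.

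Lists of genes used for narrower macrophage states had other medians. Of 8 measured monocyte genes 4 had a higher mean and 4 a lower one, with a median of 0.08. Of 8 measured genes of lipid-associated macrophages 7 had a lower mean, with a median of -0.63, and Plin2, a lipid droplet coat protein, and Lipa, the lysosomal acid lipase, had the smallest p, at -1.41 and -1.57. With a common median the monocyte list had a median of -0.0069, and the lipid-associated list had 8 of 8 lower with a median of -1.67. Plin2 is also abundant in milk-secreting epithelium. Mean log2 intensity in WT was 12.33 for Plin2 and 11.04 for Lipa, against 6.89 for Adgre1 and 7.03 for Cd68. Apoe and Mmp12 of the same list were at 7.31 and 7.68. In whole-gland RNA the lipid-associated list cannot be assigned to macrophages, and the cells its RNA came from were not tested. No gene of either list passed the adjusted threshold.

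Markers of other cell types were set beside these values, and their part in the differences of the macrophage genes was not tested. The 10 luminal epithelial markers summed to 98540 to 138100 across WT glands and to 39440 to 50930 across Rac1-/- glands, with no overlap. Milk protein genes carried most of that sum, with Wap at -2.77, Lalba at -2.07 and Csn2 at -0.86, while the epithelial keratin Krt18 was at 0.90. Of the 10, 3 had a higher mean and 7 a lower one, with a median of -0.53. With a common median all 10 had a lower mean, Krt18 among them, and the median was -1.55. Of 10 measured neutrophil markers, some of which macrophages express too, 6 had a higher mean and 4 a lower one. The groups did not overlap for Clec4d, at 2.20, and Fpr2, at 1.63, and overlapped for the other 8. Of those 8, S100a9, Csf3r, Cxcr2 and Mmp8 were at 0.73, 0.54, 0.42 and 0.19. Mmp9, Camp, S100a8 and Ngp were at -0.23, -0.13, -0.096 and -0.023. All 10 summed to 550.2 to 735.6 in WT against 767.4 to 963 in Rac1-/- glands, with no overlap. The 8 without Clec4d and Fpr2 summed to 485.2 to 649.2 against 569 to 712. Those 8 were picked because their groups overlap in these data, so the overlap of their sum decides nothing. The 7 measured dendritic cell markers had a higher mean in 6, and their sums overlapped, at 256.3 to 424.3 and 367.9 to 606.4.

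The other cell types were measured too. The median difference was 0.053 over 8 T and NK cell markers, 0.0095 over 9 B and plasma cell markers, 0.22 over 8 fibroblast markers, 0.06 over 6 adipocyte markers, -0.27 over 8 endothelial markers, -0.17 over 8 skeletal muscle markers, 0.021 over 7 myoepithelial markers and 0.36 over 6 mast cell markers. With a common median these were, in the same order, 0.034, 0.055, -0.72, -0.58, -0.36, -0.46, -0.37 and 0.34, so the fibroblast, adipocyte and myoepithelial medians changed sign. The summed levels of each of these lists overlapped between the groups, and no gene of any list was at the floor. Within the Rac1-/- group Nas497 had the lowest centred median for the fibroblast, monocyte and macrophage lists. The same held for the adipocyte, lipid-associated, B and plasma cell, mast cell, myoepithelial and skeletal muscle lists. It did not hold for the neutrophil, dendritic cell, T and NK cell, luminal and endothelial lists. For the 19 other macrophage genes Nas496 was lowest, at 0.11 against 0.13 in Nas497. Nas497 also had the lowest actin 3' to 5' difference, and a link was not tested.

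**Figure D5:**
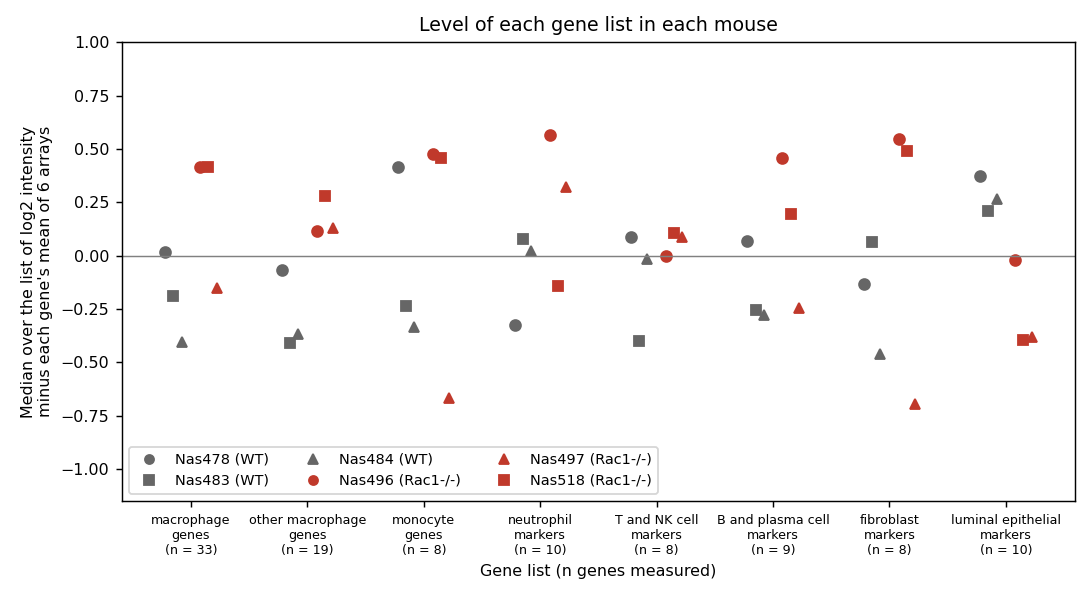
Median over each gene list (x axis, with the number of genes measured) of the log2 intensity centred on each gene's mean, 1 point per mouse with WT in grey and Rac1-/- in red. For the 33 macrophage genes Nas497 falls among the WT mice, at -0.15, and for the other macrophage genes and the luminal markers the groups separate, in opposite directions.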

How the data were processed

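Mammary gland RNA of 6 mice, labelled WT or Rac1-/- (3 each), was measured at involution day 2. Total RNA was amplified with the Sensation kit of Affymetrix, and array quality was inspected with Expression Console. Each probe set has 1 deposited value, a linear intensity, and the sources used here do not give the summary method. Once its highest and lowest 2% were dropped, every array averaged 100, so the intensities were scaled per array before they were deposited. The number of arrays limits the precision.

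Intensities of 45101 probe sets were quantile normalized, floored at 1 and taken to log2. Probe sets with 1 symbol (34945) gave 18193 genes, and those with several (932) or none (9224) were left out. The 33 genes had 53 such probe sets, of which the brightest was used per gene. Groups were compared with lmFit and eBayes of limma 3.58.1 (R 4.3.3) with Benjamini-Hochberg adjustment over all genes, and other probe sets were fitted over all probe sets. The script was tested on simulated data. The alternatives left out each mouse or a pair, changed the normalization, probe set rule, floor, filter, prior or array weights, or added a covariate.

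Values in every mouse are given for genes defining the lineage, genes whose groups do not overlap, the 3 highest and 3 lowest differences, and further examples. The members and lists were chosen with earlier results of these data known. By their names, the probe sets used for Adgre1, Ptprc, Csf1, Trem2, Laptm5, Aif1 and Folr2 (7) can match more than 1 transcript.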

Additional observations from a re-analysis of the deposited data

How the results depend on the processing

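No gene of the 33, and none of all genes, passed the adjusted threshold in any of the 16 alternatives, so no call could be lost, and 11 of the 33 (Adgre1, Cd68, Itgax, Fcer1g, Clec7a, Aif1, Ms4a7, Lgals3, Chil3, Cd86 and Cd83) had a higher mean in each that measured them, while 22 changed sign somewhere. A p that misses the threshold in 3 mice a group does not show that a gene did not differ. No paired analysis was possible because the labels do not link WT mice to Rac1-/- mice, by litter or otherwise. The count of genes whose groups do not overlap was 3 of 33, beside 9.62% of all genes in either direction. It was 0 with a common median (10.9% of all), 1 of 27 among genes above the median mean (9.65%) and 22 without Nas484 and Nas497 (39.2%). The median difference was 0.061 with a common median. Of all genes with an unadjusted limma p under 0.05, 55% were higher in Rac1-/-, and this share was 75.6% without Nas484, 33.5% without Nas497, 41.9% with a common median, 78.2% without normalization, 43.4% among genes above the median mean and 42.8% with the actin covariate.

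Signs of the difference that turned, with the cause not tested, were these. With a common median they were Ptprc -0.24, Siglec1 -0.20, Csf1r -0.22, Tyrobp -0.059, Trem2 0.61, Lyz2 -0.29, Laptm5 -0.20, Mpeg1 -0.048, Mrc1 -0.15, Arg1 -0.46 and Retnla -0.69. With the actin covariate they were Cx3cr1 -0.0077, Siglec1 -0.61, Spi1 -1.02, Fcgr1 -0.19, Fcgr3 0.79, Gpnmb -0.35, Cd163 1.05 and Arg1 -0.69. Without normalization they were Itgam 0.37, Trem2 1.08 and Retnla -0.21. With the mean of a gene's probe sets they were Csf1 -0.041, Csf2rb -0.18, Irf8 -0.41 and Laptm5 -0.46, and without probe sets that can match several transcripts Laptm5 -0.23. With array weights they were Itgam 0.12, Fcgr3 0.035 and Arg1 -0.22, and without Nas484 and Nas497 Itgam 0.28, Fcgr3 0.26 and Arg1 -0.56. Leaving out each mouse in turn, between 26 and 30 genes had a higher mean, the groups of between 4 and 18 genes did not overlap (between 14.5% and 28.8% of all genes), and the median difference was between 0.29 and 0.62. The differences that changed sign ranged over Spi1 -0.27 to 0.88, Trem2 -0.74 to 0.63, Gpnmb -0.15 to 0.20, Siglec1 -0.045 to 0.81, Cd163 -1.07 to 0.21, Itgam -0.52 to 0.49, Ptprc -0.42 to 1.55, Csf2rb -0.070 to 0.36, Folr2 -0.42 to 0.23, Arg1 -0.35 to 0.46, Retnla -0.046 to 0.56 and Fcgr3 -0.39 to 0.34.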
